A study of Homo sapiens with 6 samples.

Results

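The 9 genes described here build the contacts between neighbouring cells. They are the cadherins CDH2, CDH11 and CDH13, the catenins CTNNA1 and CTNND1, and the tight junction genes CLDN1, OCLN, F11R and TJP1. They were taken by gene symbol from a count table of 27234 genes, and each symbol was found in 1 row. Of the 9, 8 were among the 9420 genes with enough counts to be tested, and OCLN was not. The list was put together with the response of these cells already known, so its own fold changes are given as a description and without p-values.

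The cells were A673, a human line from Ewing sarcoma. Its EWS-FLI1 fusion protein couples a stretch of EWSR1 with the DNA-binding domain of FLI1, an ETS-family factor. In one group they had received siRNA against FLI1 (siFLI1, 3 libraries), and in the other a scrambled siRNA (siControl, 3 libraries). Cells of both groups grew in medium with fetal bovine serum, carried the fusion, and were harvested 48 h after transfection. Which part of the FLI1 transcript the siRNA targets is not stated in the labels, and all values come from 1 cell line. The design sets siFLI1 against siControl to find transcripts that respond to FLI1 siRNA.

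Cadherins are calcium-dependent adhesion proteins of the cell surface. Classical cadherins such as CDH2 (N-cadherin) and CDH11 (OB-cadherin) bind p120 catenin (CTNND1) and beta-catenin (CTNNB1) inside the cell, and alpha-catenin (CTNNA1) links that complex to actin. CDH13 (T-cadherin) differs in that it is held in the membrane by a lipid anchor and has no tail that binds catenins. Tight junctions seal the space between cells. Claudins such as CLDN1 form their strands, occludin (OCLN) and the junctional adhesion molecule F11R (JAM-A) are further membrane proteins of these junctions, and the scaffold TJP1 (ZO-1) ties them to actin.

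The table assigned between 1248395 and 1893606 counts to genes in 5 libraries and 417145 in siFLI1 replicate 3. In that library 10.1% of the total given in the column header fell on genes of the table, against 41.2% to 61.0% in the other 5, and 1 count was worth 2.68 CPM (counts scaled to a common library size), against 0.539 to 0.855 CPM in the others. Levels below are CPM after scaling by trimmed mean of M values (TMM), and siControl replicate 1 had a scaling factor of 1.23 where the other 5 lay between 0.936 and 0.987. FLI1, the siRNA target, averaged 28.5 ± 12.4 CPM in siFLI1 and 64.8 ± 3.71 CPM in siControl (SD, n = 3 each). Its log2 fold change of −1.16 ± 0.36 (SE) missed the threshold applied across all genes (edgeR quasi-likelihood test, adjusted p = 0.17), although the groups did not overlap. Of 8 Ewing sarcoma markers, all 8 had counts, and their summed level ran from 1893 to 2070 CPM in siFLI1 and from 3370 to 3624 CPM in siControl. CAV1 alone averaged 1184 ± 23.8 CPM in siFLI1 and 2129 ± 19.2 CPM in siControl (SD, n = 3 each), which is most of either sum. Of the 8, NR0B1 and PRKCB were called lower, 7 had a negative log2 fold change, and PAPPA was at 0.46 ± 0.32 (SE, not called). In bulk RNA, fewer cells that express a gene and less of its RNA per cell cannot be told apart.

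Among the members, 2 cadherins, CDH2 and CDH13, were called higher in siFLI1 and the claudin CLDN1 was called lower. A call means an adjusted p below 0.05 in edgeR's quasi-likelihood test over all tested genes. Of all 9420 tested genes, 1.34% were called higher and 0.117% lower, or 1.45% in either direction. These shares are background only, since the members were chosen from this same contrast. CDH2, CDH13 and CLDN1 were also the members whose libraries did not overlap between the groups, a pattern that 8.93% of tested genes showed in the higher direction and 7.71% in the lower. The catenins CTNNA1 and CTNND1, the cadherin CDH11 and the tight junction genes F11R and TJP1 were not called, and in each of them the groups overlapped.

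**Figure D1:**
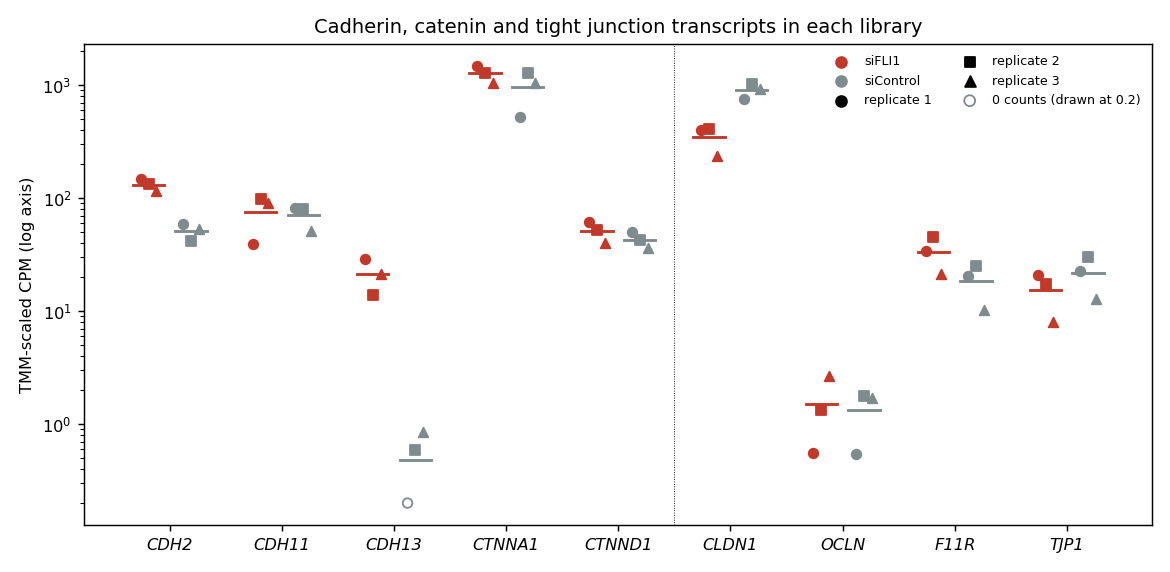
Level of each of the 9 genes in the 6 libraries (log axis, TMM-scaled CPM), with cadherins and catenins left of the dotted line and tight junction genes right of it. Red symbols are siFLI1 and grey symbols siControl, shapes give the replicate number, bars are group means, and the open symbol is a library with 0 counts drawn at 0.2. CDH2 and CDH13 lie wholly higher and CLDN1 wholly lower in siFLI1, and the other 6 genes overlap.

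EWS-FLI1 and FLI1 recognise DNA with a GGAA core, and the fusion also binds runs of GGAA repeats. The promoters of 2 members are printed for that reason. CLDN1 is the member called lower, and CTNNA1 is a member that was not called. Each sequence is the 250 bases before a start site in RefSeq (GRCh38.p14), read 5′ to 3′ on the strand of the gene. Capitals mark GGAA, or TTCC where the core is on the other strand. Both windows end at the start of the counted transcript. The CLDN1 window is chr3:190322447-190322696 on the minus strand, and the CTNNA1 window is chr5:138874980-138875229 on the plus strand.
CLDN1: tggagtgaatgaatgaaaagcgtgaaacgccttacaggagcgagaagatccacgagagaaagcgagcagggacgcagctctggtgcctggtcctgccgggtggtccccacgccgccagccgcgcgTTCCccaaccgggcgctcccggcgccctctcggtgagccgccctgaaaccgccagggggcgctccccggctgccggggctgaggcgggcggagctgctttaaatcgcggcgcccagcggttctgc
CTNNA1: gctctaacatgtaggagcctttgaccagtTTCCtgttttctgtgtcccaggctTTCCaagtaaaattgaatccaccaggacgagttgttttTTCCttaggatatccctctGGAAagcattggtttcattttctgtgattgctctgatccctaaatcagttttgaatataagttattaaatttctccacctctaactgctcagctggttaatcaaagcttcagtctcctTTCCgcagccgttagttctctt
The CLDN1 window holds 1 GGAA core and the CTNNA1 window 5, counting both strands and overlapping matches. CTNNA1 has 3 further windows in the table, at other starts, with 6, 4 and 2 cores. Those starts lie 121805, 121408 and 170 bases from the start of the counted transcript. Counts of 3′ ends do not tell which start the CTNNA1 RNA came from. Of 35116 promoter windows of that length in the RefSeq table, 92.7% hold at least 1 GGAA, with a median of 3. The tandem GGAAGGAA is in 3.06% of all windows and in neither window printed here. The table held 13 windows for 5 of the members (CDH2, CLDN1, CTNNA1, OCLN and TJP1), and 1 of them, for TJP1, had the tandem. The CDH2 window nearest the counted transcript begins downstream of that transcript's start and is not printed. A match describes letters only and is not a site of binding.

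CDH2 encodes N-cadherin, the classical cadherin of neural and mesenchymal cells. Its row lies on chromosome 18, at 27950963 to 28177446 on the minus strand (hg38). The siFLI1 replicates 1, 2 and 3 had 262, 201 and 43 CDH2 counts, or 146.5, 133.5 and 115 CPM. The siControl replicates 1, 2 and 3 had 109, 72 and 63 counts, or 58.7, 42.2 and 53.8 CPM. All siFLI1 libraries, the shallow replicate 3 included, lay well above all siControl libraries. The means were 132 ± 15.8 CPM in siFLI1 and 51.6 ± 8.50 CPM in siControl (SD, n = 3 each), and the log2 fold change was 1.36 ± 0.27 (SE, with a 95% interval of 0.78 to 1.94).

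CDH13, or T-cadherin, was at the floor of detection in siControl. It had 52, 21 and 8 counts in siFLI1 replicates 1, 2 and 3, which is 29.1, 13.95 and 21.4 CPM, against 0, 1 and 1 counts in siControl replicates 1, 2 and 3, or 0, 0.586 and 0.855 CPM. Every siFLI1 library lay above every siControl library. Because siControl held only 2 counts in all, the size of the rise is poorly bounded: its fitted log2 fold change of 5.38 ± 0.81 (SE) depends on the prior count, and pooled counts gave a ratio of 52.3 with an exact 95% interval of 14.01 to 439, which covers counting error only. CDH13 entered the test through its siFLI1 counts.

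The CDH13 row does not cover the whole gene. It spans chromosome 16, 82626794 to 83181025 on the plus strand, and ends 619615 bases before the most distal end of a coding CDH13 transcript in GENCODE 29. Only 2 of 6 coding transcripts end within 1000 bases of the row's end. The GENCODE transcript matched to the row has 6 exons, and its last 2, of 50 and 154 bases, share no base with any of the 3 coding transcripts that run on past that end. The libraries read 3′ ends, and the 3′ ends of the full-length transcripts fall outside the row. The row also overlaps the rows of LOC101928446 and MIR8058 on the same strand and of LOC101928417 on the other. In the other 8 members the row ended within 366 bases of the most distal coding end.

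CDH11, the OB-cadherin of mesenchymal and bone-forming cells, was not called. Its row is on chromosome 16, at 64943753 to 65122137 on the minus strand. It had 39.1, 98.3 and 91.04 CPM in replicates 1, 2 and 3 of siFLI1 and 81.9, 79.7 and 51.3 CPM in siControl replicates 1, 2 and 3. Both groups thus had 1 library below the other 2, and siFLI1 replicate 1 was the lowest of all 6. The log2 fold change was 0.07 ± 0.36 (SE, with a 95% interval of −0.70 to 0.84), an interval that allows a change of either sign. Its direction turned in 3 of the 6 fits that left out 1 library, which ran from −0.22 without siFLI1 replicate 2 to 0.41 without siFLI1 replicate 1, and it was −0.07 when libraries were scaled by total counts.

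The ratio of CDH2 to CDH11 counts within a library does not depend on scaling. It was 3.74, 1.36 and 1.27 in siFLI1 replicates 1, 2 and 3, against 0.717, 0.529 and 1.05 in siControl replicates 1, 2 and 3. The groups did not overlap, but siFLI1 replicate 3 and siControl replicate 3 were close. The pair was chosen after the values were seen.

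**Figure D2:**
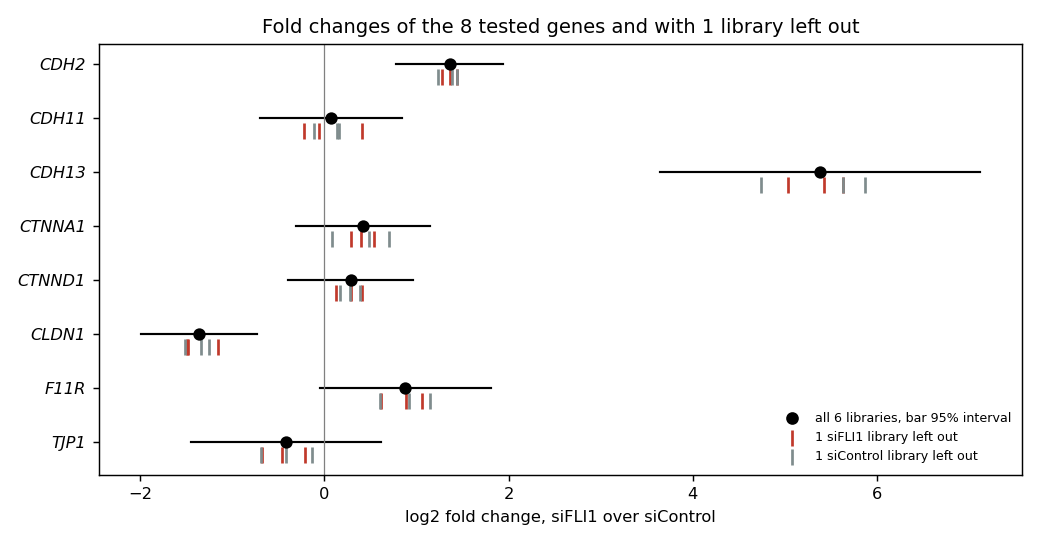
Log2 fold change of siFLI1 over siControl for the 8 tested genes, fitted with all 6 libraries (black points, bars are 95% intervals) and with 1 siFLI1 library (red ticks) or 1 siControl library (grey ticks) left out. CDH2 at 1.36, CDH13 at 5.38 and CLDN1 at −1.36 keep their side of 0 in all of these fits, and the ticks of CDH11 lie on both sides of 0.

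The catenins under these cadherins were not called. CTNNA1, the actin-linking alpha-catenin (chromosome 5, 138875230 to 138935034, plus strand), had 1486, 1293 and 1055 CPM in replicates 1, 2 and 3 of siFLI1 and 519, 1295 and 1055 CPM in siControl replicates 1, 2 and 3. Only siControl replicate 1 stood below the rest, and it is also the library with the scaling factor of 1.23. Its log2 fold change was 0.42 ± 0.34 (SE, with a 95% interval of −0.31 to 1.15), and 0.09 without that library. CTNND1, the p120 catenin that steadies cadherins at the surface (chromosome 11, 57761762 to 57819180, plus strand), ran from 40.2 to 62.1 CPM in siFLI1 and from 35.9 to 50.6 CPM in siControl. The log2 fold change of CTNND1 was 0.29 ± 0.31 (SE, with a 95% interval of −0.39 to 0.96). Its row shares strand and place with the read-through gene TMX2-CTNND1, so reads could be split between them. CTNNB1, beta-catenin, which is no member, averaged 40.1 ± 7.76 CPM in siFLI1 and 39.3 ± 5.79 CPM in siControl (SD, n = 3 each).

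CLDN1 is the claudin best known from skin, liver and other epithelia. Its row is on chromosome 3, at 190305701 to 190322446 on the minus strand. The siFLI1 replicates 1, 2 and 3 had 724, 616 and 88 CLDN1 counts, or 405, 409 and 236 CPM. The siControl replicates 1, 2 and 3 had 1390, 1768 and 1093 counts, or 748.5, 1035 and 934 CPM. The groups lay well apart, and the shallow siFLI1 replicate 3 was the lowest library. The siFLI1 mean of 349.9 ± 99.0 CPM was 38.6% of the siControl mean of 906 ± 145.5 CPM (SD, n = 3 each), and the log2 fold change was −1.36 ± 0.29 (SE, with a 95% interval of −1.99 to −0.73).

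The other tight junction genes overlapped between groups. F11R (chromosome 1, 160995211 to 161021343, minus strand) had 34.1, 45.2 and 21.4 CPM in replicates 1, 2 and 3 of siFLI1 and 20.5, 25.2 and 10.3 CPM in siControl replicates 1, 2 and 3. Its siFLI1 replicate 3, with 8 counts, lay below siControl replicate 2, and the log2 fold change was 0.88 ± 0.44 (SE, with a 95% interval of −0.05 to 1.81). TJP1 (chromosome 15, 29699367 to 29821548, minus strand) had 20.7, 17.3 and 8.03 CPM in replicates 1, 2 and 3 of siFLI1, the last from 3 counts, and 22.6, 29.9 and 12.8 CPM in siControl replicates 1, 2 and 3. Its log2 fold change was −0.41 ± 0.48 (SE, with a 95% interval of −1.45 to 0.62). The table gives 2 copies for the TJP1 row and 1 for each other member. OCLN (chromosome 5, 69492763 to 69558104, plus strand) had 1, 2 and 1 counts in siFLI1 replicates 1, 2 and 3 and 1, 3 and 2 in siControl replicates 1, 2 and 3. At this depth no difference in OCLN was detectable.

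The ratio of CLDN1 to CTNNA1 counts, CTNNA1 being a member that was not called, was 0.272, 0.316 and 0.223 in siFLI1 replicates 1, 2 and 3, against 1.44, 0.800 and 0.886 in siControl replicates 1, 2 and 3. The groups did not overlap. The pair was chosen after the values were seen, from genes picked on this same contrast, so the ratio is a description only.

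The calls on CLDN1 and CDH2 depended on which libraries were used. With 1 library left out, CLDN1 was called only without siControl replicate 1, and CDH2 only without siFLI1 replicate 3 or without siControl replicate 1, while their log2 fold changes stayed between −1.51 and −1.15 for CLDN1 and between 1.23 and 1.44 for CDH2. CDH13 lost its call only without siFLI1 replicate 1. CDH2 also lost its call when libraries were scaled by total counts, at 1.22, a scaling that put the median of all tested genes at −0.12 against 0.01 with TMM. With the replicate number as a block, CDH2 at 1.37 and CLDN1 at −1.39 both lost their calls and CDH13 was called. Without both siFLI1 replicate 3 and siControl replicate 1, a choice made after the data had been seen, all 3 genes were called from 4 libraries.

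The wider set of junction genes gave 2 calls. Besides the members, 10 lists of junction genes held 171 symbols, of which 169 were in the table and 61 could be tested. Of these 61, 2 were called higher and 0 lower (edgeR), against 1.34% higher and 0.117% lower over all tested genes, and their median log2 fold change was 0.18 against 0.01 over all tested genes. DESeq2 called 3 higher (CLDN11, GRHL1 and FAT1) and limma-voom 2 (CLDN11 and FAT1), and both called 0 lower. At an unadjusted p below 0.05, edgeR had 5 higher (8.20%) and 7 lower (11.5%), against 6.62% and 4.13% of all tested genes. The 5 were FAT1, CLDN11, PTPN14, GRHL1 and VCL, and the 7 were PKP2, PCDH10, MPP5, PKP1, SCRIB, TCF3 and CLSTN2. No overlap between groups was seen in 14.8% of the 61 in the higher direction and in 13.1% in the lower, where all tested genes had 8.93% and 7.71%.

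The claudin called higher was CLDN11, the claudin of myelin and of the testis (chromosome 3, 170421240 to 170434691, plus strand). It had 57.03, 54.5 and 58.9 CPM in replicates 1, 2 and 3 of siFLI1, against 4.31, 2.34 and 3.42 CPM in siControl replicates 1, 2 and 3, and the fitted difference on the log2 scale was 4.04 ± 0.44 (SE, adjusted p = 0.000108 in the edgeR test). CLDN11 was called in each of the 14 other fits, from 3.82 to 4.27, and CLDN1 in 8 of them. Like CDH13, CLDN11 entered the test through its siFLI1 counts, as it had 8, 4 and 4 counts in siControl replicates 1, 2 and 3. Its row overlaps that of MIR6828 on the same strand. The only other claudin tested, CLDN12, averaged 52.7 ± 6.39 CPM in siFLI1 and 51.4 ± 20.03 CPM in siControl (SD, n = 3 each). It is named because it was the only one left to report.

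GRHL1, a grainyhead-like factor, was the other gene called higher. It stood in the list of regulators that repress cadherins, although grainyhead-like factors are known for promoting epithelial genes. GRHL1 averaged 19.04 ± 7.53 CPM in siFLI1 and 2.30 ± 1.59 CPM in siControl (SD, n = 3 each), with a fitted difference of 2.92 ± 0.68 on the log2 scale (SE, adjusted p = 0.0482 in the edgeR test). GRHL1 too entered the test through its siFLI1 counts, as it had 2, 7 and 2 counts in siControl replicates 1, 2 and 3. It lost the call in each fit that left out 1 library, with adjusted p from 0.0843 without siControl replicate 2 to 0.267 without siFLI1 replicate 2. Of the other alternatives, DESeq2 and the fit with no low-count filter called it, and limma-voom (adjusted p = 0.125), DESeq2-type size factors (0.0505), total counts (0.0582), the filter of 5 CPM in 3 libraries (0.0561), the replicate block (0.065) and the fit without siFLI1 replicate 3 and siControl replicate 1 (0.143) did not. Of the usual repressors of CDH1, SNAI1, SNAI2 and ZEB1 had too few counts to be tested, and TWIST1 was at −0.14 ± 0.27 (SE, adjusted p = 0.903). SNAI2 had 33 counts in siFLI1 and 8 in siControl, and its groups did not overlap. SNAI1 had 23 counts in siFLI1 and 55 in siControl, and ZEB1 had 18 and 9, both with overlap between the groups.

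The remaining lists had 0 genes called in edgeR, in either direction. Catenins and other adherens plaque genes numbered 10 tested, with 0.25 as their median log2 fold change, and plakoglobin (JUP) had too few counts to be tested. Vinculin (VCL), which binds alpha-catenin under tension, was at 0.80 ± 0.28 (SE, adjusted p = 0.251). Of 6 other tight junction genes the median was 0.37, with the junctional adhesion molecule JAM3 at 0.46 ± 0.52 (SE, adjusted p = 0.833). Of 8 polarity genes the median was 0.06, and of 12 genes of cadherin shedding and turnover it was 0.34. The 10 tested protocadherins and large cadherins had a median of −0.69 and ran from −1.93 to 1.65. Of these 10, 4 had a positive log2 fold change and 6 a negative one. The highest was the giant cadherin FAT1 (edgeR adjusted p = 0.0654), which DESeq2 and limma-voom called. The lowest was CLSTN2, at −1.93 ± 0.72 (SE, edgeR adjusted p = 0.306), with overlap between the groups. PCDH10 was next, at −1.35 ± 0.52 (SE, edgeR adjusted p = 0.331), with no overlap. The only other classical or type II cadherins with enough counts were CDH4, at −0.18 ± 0.37 (SE, adjusted p = 0.911), and CDH12, at −0.88 ± 0.62 (SE, adjusted p = 0.682). The 3 tested gap junction genes had a median of −0.33. The only desmosome genes tested were the plakophilins PKP1, at −0.98 ± 0.30 (SE, adjusted p = 0.175), and PKP2, at −1.74 ± 0.62 (SE, adjusted p = 0.273), and both had no overlap between the groups. PKP2 entered the test through its siControl counts, as it had 8, 4 and 1 counts in siFLI1 replicates 1, 2 and 3. FAT1, CLSTN2, PCDH10, VCL, CDH4, CDH12, PKP1 and PKP2 are named after their values were seen.

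**Figure D3:**
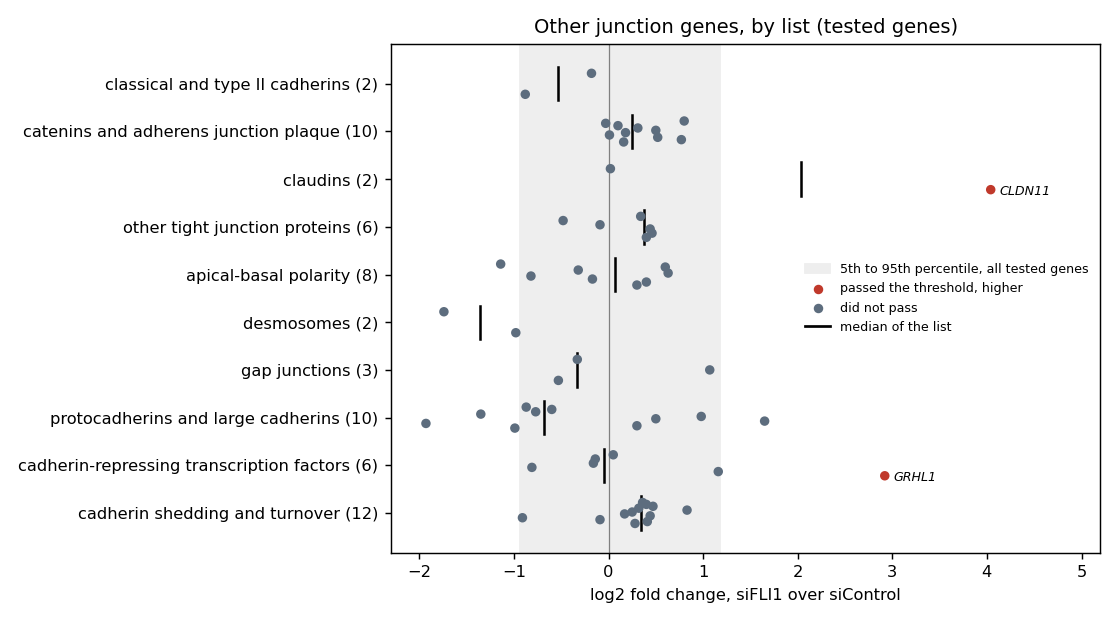
Log2 fold change of siFLI1 over siControl for the tested genes of 10 junction lists, without the 9 members, with the number tested in brackets. Red points passed the threshold, dark points did not, black bars are list medians, and the grey band holds the 5th to 95th percentile of all tested genes, −0.94 to 1.18. CLDN11 at 4.04 and GRHL1 at 2.92 lie right of the band.

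Epithelial and endothelial cadherins were close to absent. CDH1 (E-cadherin) had 2 counts in siFLI1, both in replicate 3, and 0 in siControl, CDH3 (P-cadherin) had 0 counts in all 6 libraries, and CDH5 (VE-cadherin) had 0 counts in siFLI1 and 2 in siControl. In a library of 417145 counts, a count of 0 still allows 3. Of 10 epithelial markers 3 were at 0 in every library (KRT19, KRT5 and KRT14), and the list summed to between 228 and 261 CPM in siFLI1 and between 178 and 227 CPM in siControl, mostly from KRT18. Of 9 endothelial markers 1 was at 0 throughout, and the list summed to between 13.4 and 17.9 CPM in siFLI1 and between 7.03 and 23.2 CPM in siControl. Collagens of the fibroblast list moved with CDH2 and CDH13. The 8 genes of that list had counts and summed to between 2225 and 2569 CPM in siFLI1 and between 817 and 1018 CPM in siControl, and COL1A1, COL1A2 and COL3A1 were called higher. Most of that sum came from these collagens, and COL1A2 alone averaged 1246 ± 39.7 CPM in siFLI1 libraries, against 328 ± 39.8 CPM in those of siControl (SD, n = 3 each). Not every gene of the list had the same direction: THY1 averaged 269 ± 79.8 CPM in siFLI1 and 335 ± 134 CPM in siControl (SD, n = 3 each) and was not called. PDGFRA had 3 counts in siFLI1 and 26 in siControl, but 25 of these 26 were in siControl replicate 1, and the groups overlapped. PDGFRB, at 1.68 ± 0.47 (SE, edgeR adjusted p = 0.117), was not called, although all its siFLI1 libraries lay above those of siControl. The defining fibroblast genes DCN and LUM had 9 and 4 counts in siFLI1 and 2 each in siControl. The part of these markers in the levels of CDH2 and CDH13 was not tested.

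Profiles were log2 CPM values, with 0.5 CPM added before the log, standardised over the 6 libraries. For each called member, the 2 tested genes closest in profile by Euclidean distance were sought over all 9420 genes. For CDH2 these were L1CAM, a neural adhesion molecule, at a distance of 0.165, and the syndecan SDC2 at 0.244. L1CAM averaged 67.1 ± 11.99 CPM in siFLI1 and 17.6 ± 3.77 CPM in siControl (SD, n = 3 each). It was called higher, by 1.94 ± 0.34 on the log2 scale (SE). Because L1CAM was picked for its likeness to CDH2 in these same libraries, that call is a description only. The call was lost when siFLI1 replicate 1, siControl replicate 2 or siControl replicate 3 was left out. SDC2 was not called. For CDH13 they were AKR1B1, an aldose reductase, at 0.185, and the collagen COL3A1 at 0.309. AKR1B1 was not called, and COL3A1 was called higher. The CDH13 profile depends on the 0.5 CPM added, as siControl replicates 1, 2 and 3 had 0, 0.586 and 0.855 CPM. For CLDN1 they were SMC2, a condensin subunit, at 0.366, and the glutamate transporter SLC1A3 at 0.367. SMC2, which averaged 24.5 ± 5.14 CPM in siFLI1 and 52.02 ± 1.88 CPM in siControl, and SLC1A3, which averaged 11.95 ± 3.45 CPM in siFLI1 and 26.1 ± 3.92 CPM in siControl (SD, n = 3 each), were not called. The 6 libraries fall into 2 groups, so a small distance chiefly reflects the same order of the groups and similar spread within them.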

How the data were processed

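RNA was measured in 6 A673 libraries by 3′ RNA-seq, a bulk form of MARS-seq per the labels' protocols. The authors deposited raw counts per gene over exons, with 1 transcript row for each gene. Per the submitters' processing notes, software included bcl2fastq, HOMER and HISAT 0.1.5, and the genome build was hg38. Whether molecular barcodes were collapsed and which strand was counted are not stated. Per the labels' protocols cells were transfected in triplicate, but separate days are not stated, so p-values reflect only how these libraries vary, which may be technical. No pair of replicates was alike within counting noise (lowest ratio of chi-square to its degrees of freedom 6.78).

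Genes were kept with edgeR's filterByExpr (minimum count 10, minimum total 15) and scaled by TMM. Tests used R 4.3.3 and edgeR 4.0.16 (glmQLFit, robust, then glmQLFTest, two-sided) with Benjamini-Hochberg adjustment over all tested genes and a threshold of 0.05. DESeq2 1.42.0, limma-voom (limma 3.58.1), other scalings and filters, a replicate block and fits with 1 library left out were alternatives. Fits were also run on simulated counts with the same dispersion for every gene, which cannot show how they handle an outlying library. The members, lists and rules were chosen with earlier results of these data known. Named genes were the members, up to 4 called genes of each junction list, a fixed set of 13 well-known genes (1 of them is not reported here), and the 2 nearest profiles of each called member. GENCODE 29 (GRCh38) gave transcript ends and RefSeq promoters.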

Additional observations from a re-analysis of the deposited data

How the results depend on the processing

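Counts of called genes moved more than fold changes did. With no low-count filter 306 genes were called higher and 62 lower, scaling by total counts called 17 lower, DESeq2 34 and the fit with a replicate block 2. A fit without both siFLI1 replicate 3 and siControl replicate 1, chosen after these data had been seen, called 161 higher and 32 lower. Leaving out 1 library gave between 64 and 121 genes higher and between 1 and 7 lower. Of the members, 1 was called higher under scaling by total counts, and 1 higher (CDH13) and 0 lower under the replicate block. Leaving out 1 library gave 0 to 2 members higher and 0 to 1 lower. Of the other junction genes, 1 was called higher (CLDN11) with size factors of the DESeq2 type, total counts, a filter of 5 CPM in 3 libraries or the replicate block, 5 with no filter, and 1 to 2 with 1 library left out. The replicate numbers were not shown to pair the libraries: deviations of same-numbered libraries correlated at −0.0184, −0.0159 and −0.0361. The direction of CDH11 turned under total counts (−0.07), limma-voom (−0.10) and the replicate block (0.00), and over fits without 1 library it ran from −0.22 to 0.41. CTNNB1 turned under total counts (−0.10), no filter (−0.04), DESeq2 (0.00), limma-voom (−0.02) and without both libraries (−0.17), and ran from −0.11 to 0.17 without 1 library. The cause was not tested. The members CLDN1, TJP1, F11R, CDH2, CDH13, CTNNA1 and CTNND1 kept their sign in all 14 alternatives. The members with the fewest counts were OCLN (4 in siFLI1 and 6 in siControl), CDH13 (81 and 2), TJP1 (66 and 108) and F11R (137 and 93).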
